A study of Mus musculus with 5 samples.

Results

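T, Eomes, Tbx6, Mixl1, Gsc, Mesp1, Fgf8, Cdx1, Cdx2 and Cdx4 are genes of the primitive streak, the early mesoderm and the caudal end of the mouse embryo. They were chosen by symbol, as streak, mesoderm and caudal genes, from the 24421 genes of each of 2 expression tables, and all 10 were present in both. RNA sequencing was run on 5 mouse libraries: mouse embryonic fibroblasts (MEF), induced pluripotent stem cells (IPS), the untreated mouse embryonic stem cell line V6.5, V6.5 cells expressing a non-targeting control shRNA (NTC), and V6.5 cells expressing an shRNA against Gldc (shGldc). Gldc encodes glycine decarboxylase, the enzyme of the mitochondrial glycine cleavage system that breaks glycine down. The study asked how this enzyme takes part in reprogramming and in the pluripotent state. Per the labels, the pluripotent cells were grown without feeders in 15% serum replacement, 1% FBS and 1000 U/ml of mouse LIF, and the fibroblasts in 10% FBS. V6.5 is a single established line, and the column of the shGldc library is named sh3, a hairpin whose sequence is not given in the sources used here.

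In the gastrulating embryo, cells of the epiblast pass through the primitive streak and become mesoderm and endoderm. Nodal, Wnt and BMP signals induce the streak, where the T-box factors T (Brachyury) and Eomes, the homeobox factors Mixl1 and Gsc and the bHLH factor Mesp1 are switched on. Fgf8 is a ligand that streak cells need to migrate, and Tbx6 directs cells of the posterior streak to the paraxial mesoderm. The caudal homeobox factors Cdx1, Cdx2 and Cdx4 act later, in the posterior embryo and tailbud, where they respond to Wnt signals and retinoic acid and act on Hox genes. Cdx2 and Eomes are also factors of the trophoblast, the outer layer of the blastocyst. Embryonic stem cells in culture resemble the epiblast before the streak forms, and their cultures can hold some cells that have begun to leave the pluripotent state.

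Levels are given as FPKM, the number of fragments that fell on a gene, scaled to its length and to the mapped fragments of the library, so that genes can be compared with each other. MEF, IPS and V6.5 were in one table and NTC and shGldc in the other, and the tables were made separately. Differences are log2 ratios of FPKM + 0.1, which understate the change of genes with low levels. A gene was called higher or lower when this ratio reached 2-fold and when its FPKM was at least 1 in at least 1 library of the comparison. Each group was 1 library, so no difference has a replicate check and none was tested. From the size of the smallest steps between FPKM values, depth was estimated at 22100000 to 28900000 fragments per library, and this estimate is uncertain by a factor of 2 in NTC and shGldc cells, where a step of double size held 25 and 22 values against 25 and 34.

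Gldc itself stood at 0.123 FPKM in MEFs, 70.8 in iPSCs, 59.7 in V6.5 cells and 74.7 in NTC cells, and at 2.07 in shGldc cells. The shGldc library thus held 36-fold less Gldc than the NTC library, as its label says. All 9 pluripotency markers examined, among them Pou5f1, Sox2 and Nanog, were above 1 FPKM in the 4 pluripotent libraries, and their summed level was 25.4 FPKM in MEFs against 3789.9 to 7066 in the others. Col1a1, a fibroblast collagen, stood at 3672 FPKM in MEFs, 1.68 in iPSCs, 20.5 in V6.5 cells, 1.24 in NTC cells and 0.125 in shGldc cells, so the untreated V6.5 library held more fibroblast collagen than the other pluripotent libraries. The study's methods also describe a culture of these cells on feeders, and whether feeder cells were present in this library was not tested. Every member stood at under 1 FPKM in MEFs.

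The members fell into 3 patterns of level. The Cdx genes were low or at 0 in MEFs and reached their highest levels in shGldc cells, T and Mixl1 were several-fold higher in NTC and shGldc cells than in the first table, and Eomes, Gsc, Fgf8 and Tbx6 varied by less than 3-fold over the 4 pluripotent libraries, with levels set across the separately made tables. Mesp1 was low where it was seen. In MEFs, 6 of the 10 genes were listed at 0, and Gsc was the highest at 0.636 FPKM. Members at 1 FPKM or more numbered 5 in iPSCs, 4 in V6.5 cells, 6 in NTC cells and 7 in shGldc cells. Cdx1 was the highest member in each of these 4 libraries. In bulk RNA, a few cells with a high level and many cells with a low level cannot be told apart, nor can fewer cells of a type and less RNA per cell.

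**Figure D1:**
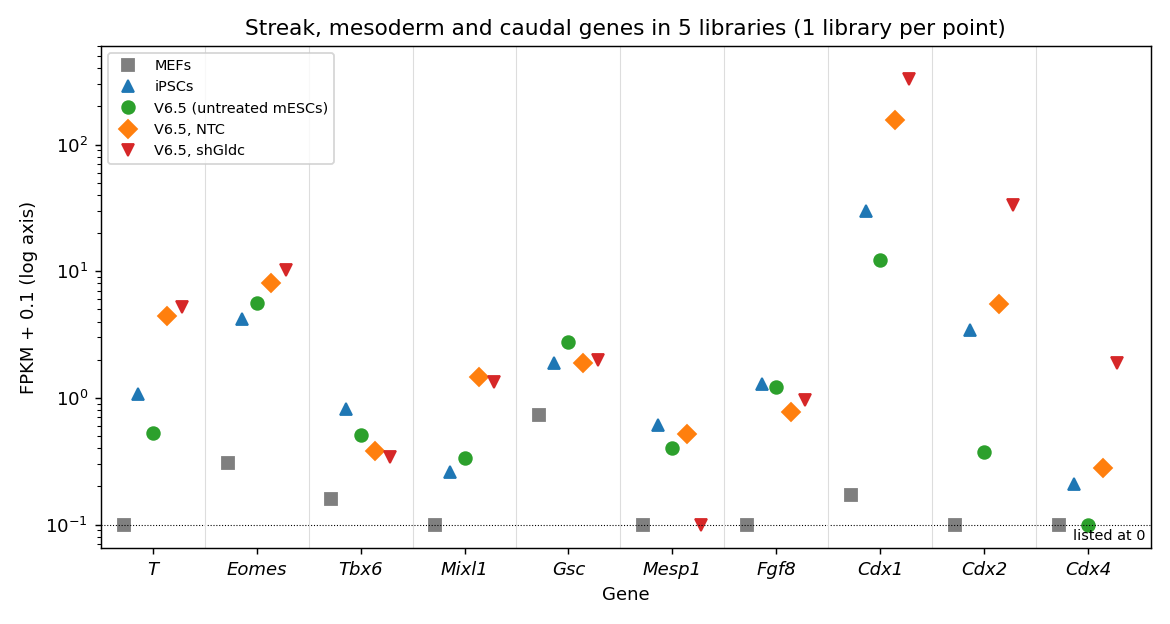
FPKM + 0.1 on a log axis for each of the 10 genes (x axis), with 1 point per library, and the dotted line marks genes listed at 0. Cdx1 ran from 0.0698 FPKM in MEFs to 328 in shGldc cells, while Gsc, Fgf8 and Tbx6 lay within a narrow range in the 4 pluripotent libraries.

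Among the members that passed the filter, the Cdx genes carried the largest differences between shGldc and NTC cells. Cdx2, which in the embryo directs both the trophoblast and the posterior axis, lies on chromosome 5 (mm10, 147300805 to 147307270, minus strand), and Cdx4, the X-linked member of the family, at 103321398 to 103330592 on the plus strand. Promoters, taken as the 250 bases before and 50 after the annotated start in RefSeq (GRCm38.p6), were at hand for 7 of the 10 genes, and none was at hand for Mixl1, Cdx1 and Fgf8. Of these 7, the Cdx2 and Cdx4 promoters held the octamer ATGCAAAT, which is the sequence bound by POU factors such as Oct4 and was found on either strand in 1.74% of all 32851 promoters. The 2 sequences are shown because these were the 2 genes among the members with the largest shGldc-to-NTC ratios, and the capitals mark the octamer, 147 and 93 bases before the start (chr5:147307378-147307407, minus strand, and chrX:103321294-103321323, plus strand).
Cdx2: caacttttaaaATGCAAATcgtgtttctgg
Cdx4: ccttcatttgaATGCAAATgctatgtaaaa
The motif was looked for after the levels were known, and a match is a description of the letters, not of a bound site.

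Cdx2 was listed at 0 in MEFs and stood at 3.34 FPKM in iPSCs, 0.274 in V6.5 cells, 5.41 in NTC cells and 33.3 in shGldc cells. The shGldc level was 6.15-fold that of NTC cells (log2 ratio 2.60), with a counting interval of 5.24 to 7.24 (95%, exact, at the lower of the possible depths), which covers counting error only. Among the 11969 genes that passed the filter in this comparison, Cdx2 ranked 229 from the highest. Cdx2 also separated the 2 pluripotent cell types of the first table, being 12.2-fold higher in iPSCs than in V6.5 cells (log2 ratio 3.20, rank 62 of 12323 genes). Across the separately made tables, NTC cells held 19.8-fold more Cdx2 than untreated V6.5 cells (log2 ratio 3.88, rank 37 of 12048). With a pseudocount of 1 in place of 0.1, the log2 ratio of Cdx2 was 2.33 for NTC over V6.5 cells and 2.42 for shGldc over NTC cells, so the order of these differences depended on the pseudocount.

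Cdx4 was listed at 0 in MEFs and V6.5 cells, and stood at 0.11 FPKM in iPSCs and 0.179 in NTC cells. It reached 1.77 FPKM in shGldc cells, the single library above 1. This was 9.93-fold the NTC level (log2 ratio 2.75, rank 212), from about 10 fragments in NTC and 100 in shGldc cells, or 5 and 50 at the lower of the possible depths, where the counting interval ran from 4.04 to 32.4. Cdx4 passed the filter through its shGldc level, so a difference in this direction was a condition of its being counted.

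Cdx1, expressed in the posterior streak and neural plate and a target of Wnt and retinoic acid signals in the embryo, is encoded on the minus strand at 61018862 to 61036199 of chromosome 18. It stood at 0.0698 FPKM in MEFs, about 3 fragments, at 29.8 in iPSCs, 12.1 in V6.5 cells, 157 in NTC cells and 328 in shGldc cells. In NTC cells it ranked 528 and in shGldc cells 252 by level among all 24421 genes, while in V6.5 cells it ranked 5218. The shGldc level was 2.09-fold that of NTC cells (log2 ratio 1.06), just past the 2-fold rule, with a counting interval of 2.01 to 2.17 and a rank of 967 among the genes that passed. iPSCs held 2.46-fold more Cdx1 than V6.5 cells (log2 ratio 1.29). The step from V6.5 to NTC cells, taken across the tables, was 12.9-fold (log2 ratio 3.68, rank 44).

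Summed over the Cdx genes, the level was 0.0698 FPKM in MEFs, 33.2 in iPSCs, 12.4 in V6.5 cells, 162 in NTC cells and 363 in shGldc cells. Cdx1 made up 89.6% to 97.8% of this sum in the 4 pluripotent libraries. The other 7 members summed to 9.41 FPKM in iPSCs, 10.6 in V6.5 cells, 16.8 in NTC cells and 19.5 in shGldc cells. The Cdx genes therefore held 77.9% of the summed level of the members in iPSCs, 53.8% in V6.5 cells, 90.6% in NTC cells and 94.9% in shGldc cells.

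T, which streak cells need to form mesoderm and the tail, lies at 8434423 to 8442496 on chromosome 17 (plus strand), and Mesp1, which marks the first cardiac and cranial mesoderm, at 79792241 to 79793788 on chromosome 7 (minus strand). Their promoters held the letters CTTTGAA, a form of the sequence bound by the TCF/LEF factors of the Wnt pathway, which 5.14% of all promoters held on either strand. The second form, CTTTGAT, shares CTTTGA with it, was in 3.73% of promoters and was found in that of Mesp1. They are shown since T is a classical Wnt target of the streak, and the capitals mark the match, which reads TTCAAAG where it lies on the opposite strand. The windows are chr17:8434177-8434206 (plus strand) for T and chr7:79793645-79793674 and chr7:79793603-79793632 (minus strand) for Mesp1. The RefSeq start of Mesp1 from which its promoter was read lies inside the gene as GENCODE places it, so both Mesp1 windows fall within the positions given above.
T: ctgctcggtacTTCAAAGggtgtcccgccc
Mesp1, first form: ccctgctatggTTCAAAGggttcaggccct
Mesp1, second form: gctcgagccggCTTTGATatgctgatgaat
The T-box core AGGTGT was in 13.7% of all promoters and in those of T, Mesp1 and Cdx4, and TTTATNG, the core bound by Cdx factors, was in 10.9% and in those of T and Tbx6, both counted on either strand.

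T was listed at 0 in MEFs and stood at 0.964 FPKM in iPSCs, 0.425 in V6.5 cells, 4.33 in NTC cells and 5.08 in shGldc cells. NTC and shGldc cells lay 1.17-fold apart (log2 ratio 0.23). This was less than the spread of all genes that passed the filter between these 2 libraries, whose log2 ratios had a robust SD of 0.53. NTC cells held 10.2-fold more T than untreated V6.5 cells (log2 ratio 3.08, rank 71, across the tables). T thus differed between the 2 libraries without the Gldc shRNA and not, by the 2-fold rule, between NTC and shGldc cells.

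Eomes, needed for the endoderm and for cells to leave the streak, lies at 118478212 to 118486132 on chromosome 9 (plus strand). An annotated gene on the opposite strand, Gm33460, overlaps its exons, and 2.1% of its stretches of 50 bases occur in other genes as well, so part of its reads may be shared. Its level was 0.208 FPKM in MEFs, 4.09 in iPSCs, 5.48 in V6.5 cells, 7.97 in NTC cells and 10.1 in shGldc cells. Eomes was 26.4-fold higher in V6.5 cells and 19.7-fold higher in iPSCs than in MEFs. Within the pluripotent libraries it stayed within 2-fold of its neighbours, with log2 ratios of -0.41 for iPSCs over V6.5 cells, 0.53 for NTC over V6.5 cells across the tables and 0.34 for shGldc over NTC cells.

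Tbx6, the third T-box member, is encoded on chromosome 7 at 126781483 to 126785560 (plus strand) and stayed under 1 FPKM throughout. It stood at 0.0583 FPKM in MEFs, 0.712 in iPSCs, 0.409 in V6.5 cells, 0.282 in NTC cells and 0.244 in shGldc cells. It passed the filter in no comparison, and its shGldc-to-NTC log2 ratio was -0.15.

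Mixl1, a homeobox factor that guides mesoderm and endoderm formation in the streak, lies at 180693043 to 180697034 on chromosome 1 (minus strand). It was listed at 0 in MEFs and stood at 0.162 FPKM in iPSCs, 0.234 in V6.5 cells, 1.36 in NTC cells and 1.23 in shGldc cells. Like T, it was higher in NTC than in V6.5 cells, by 5.8-fold across the tables (log2 ratio 2.13, rank 137), while shGldc and NTC cells lay close together (log2 ratio -0.13). The counting interval of the shGldc-to-NTC ratio, 0.586 to 1.43, included 1. With a pseudocount of 1 in place of 0.1, the log2 ratio of NTC over V6.5 cells was 0.93, under 2-fold.

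Gsc, a homeobox repressor of the anterior streak and organizer, lies at 104471209 to 104473330 on chromosome 12 (minus strand). Its level was 0.636 FPKM in MEFs, 1.78 in iPSCs, 2.66 in V6.5 cells, 1.79 in NTC cells and 1.89 in shGldc cells. Gsc was the member with the smallest shGldc-to-NTC ratio in size, 1.06-fold with a counting interval of 0.623 to 1.73, and it was 4.18-fold higher in V6.5 cells than in MEFs.

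Mesp1 was listed at 0 in MEFs and shGldc cells, and stood at 0.516 FPKM in iPSCs, 0.301 in V6.5 cells and 0.417 in NTC cells. It never reached 1 FPKM, so the step from 0.417 to 0 between NTC and shGldc cells was under the filter and was not called. Fgf8, the ligand of the list, lies at 45736798 to 45742915 on chromosome 19 (minus strand). It was listed at 0 in MEFs and stood at 1.19 FPKM in iPSCs, 1.12 in V6.5 cells, 0.67 in NTC cells and 0.861 in shGldc cells. Its log2 ratio was 0.07 for iPSCs over V6.5 cells, 0.32 for shGldc over NTC cells and -0.67 for NTC over V6.5 cells across the tables.

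**Figure D2:**
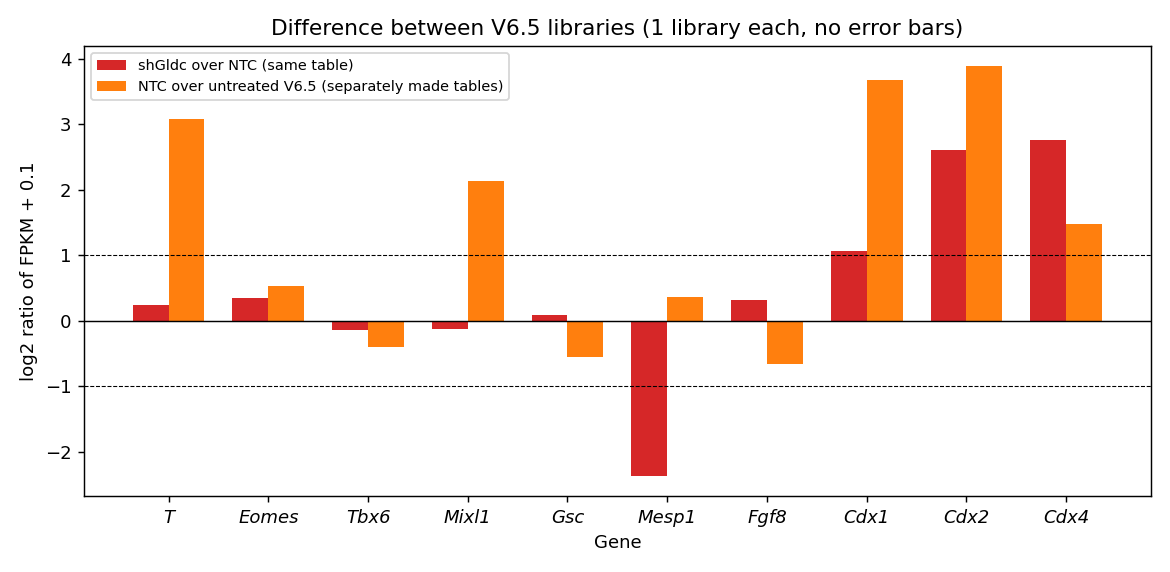
Log2 ratio of FPKM + 0.1 for each gene, for shGldc over NTC cells (red) and NTC over untreated V6.5 cells (orange, taken across separately made tables), with dashed lines at 2-fold. Cdx1, Cdx2 and Cdx4 lay above 2-fold in both, T and Mixl1 in the second alone, and Cdx4 in the second and Mesp1 in the first had no library at 1 FPKM.

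Between shGldc and NTC cells, 7 of the 10 members passed the filter, 3 were at least 2-fold higher (Cdx1, Cdx2 and Cdx4) and 0 lower. Cdx4 passed through its shGldc level alone, so that it could only be higher. Of the 11969 genes that passed, 8.97% were higher and 7.68% lower by the same rule. The median log2 ratio over the 10 members was 0.27, against 0.04 over all genes that passed, and it includes 3 members under the filter. NTC and untreated V6.5 cells share no table, and there 7 members passed, 4 were higher (T, Mixl1, Cdx1 and Cdx2) and 0 lower, beside 4.99% of all genes higher and 10.3% lower. T, Mixl1 and Cdx2 were under 1 FPKM in V6.5 cells and passed through their NTC level, so that they could only be higher. The median of the members, including those under the filter, was 1.01, and that of all genes that passed was -0.06. Both comparisons use the NTC library, so they are not independent of each other.

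**Figure D3:**
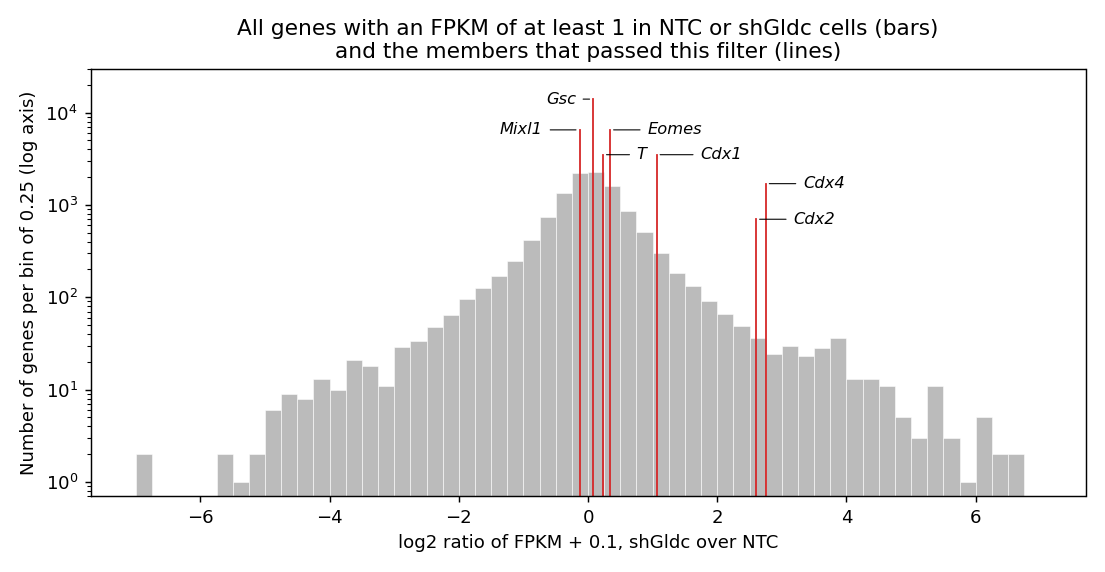
Distribution of the log2 ratio of FPKM + 0.1 for shGldc over NTC cells over the 11969 genes that passed the filter (grey bars, number of genes on a log axis), with red lines for the 7 members that passed. Mixl1, Gsc, T and Eomes lay in the centre between -0.13 and 0.34, and Cdx1, Cdx2 and Cdx4 at 1.06, 2.60 and 2.75.

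Against MEFs, 4 members passed and were higher in V6.5 cells (Eomes, Gsc, Cdx1 and Fgf8), and 5 in iPSCs (the same 4 and Cdx2), with 0 lower in either. With a pseudocount of 1 the log2 ratio of Gsc in iPSCs over MEFs was 0.77, under 2-fold, and the iPSC count was 4. Of all genes tested, 30.3% were higher and 23.3% lower in V6.5 cells, and 31.5% higher and 21.3% lower in iPSCs. With the libraries rescaled to the same FPKM sum, the V6.5 shares became 25.3% and 27.2% and the iPSC shares 24.6% and 26.3%. No member reached 1 FPKM in MEFs, so each that passed did so through its level in the pluripotent cells, and these counts say nothing beyond those levels. The median log2 ratio of the 10 members, including those under the filter, was 1.96 in V6.5 cells and 3.02 in iPSCs. With values under 3 fragments raised to that level it was 2.44 and 3.42. Over all genes that passed the filter the median was 0.25 and 0.31. Both comparisons share the MEF library. Between iPSCs and V6.5 cells, 5 members passed, 2 were higher (Cdx1 and Cdx2) and 0 lower, beside 10.1% of all genes higher and 7.44% lower. Cdx2 passed through its iPSC level alone.

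Of the signals that induce the streak and their readouts, 18 of 20 genes passed the filter between shGldc and NTC cells, 6 were higher and 3 lower, beside 8.97% and 7.68% of all genes, and the median log2 ratio over all 20 was 0.34. Of the 16 at 1 FPKM or more in NTC cells, 4 were higher and 3 lower. The highest, which both passed through their shGldc level alone, were Wnt8a, a ligand of the posterior streak, at 0.883 FPKM in NTC and 14.6 in shGldc cells (log2 ratio 3.90), and Wnt3, the ligand that starts the streak, at 0.0165 and 1.48. The lowest were Bmp4, which signals from the extraembryonic ectoderm to the streak, at 34.4 FPKM in NTC and 3.31 in shGldc cells (log2 ratio -3.34), and Fgf4, the FGF ligand made by embryonic stem cells, at 59.9 and 18. The higher and the lower genes thus included ligands of different streak-inducing pathways. Nodal and its co-receptor Tdgf1, the gene of this list with the highest level in each pluripotent library, were not called.

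Axin2 and Sp5, general targets of canonical Wnt signalling, were named after their values were seen. Axin2 stood at 0.452 FPKM in MEFs, 4.69 in iPSCs, 1.49 in V6.5 cells, 16.6 in NTC cells and 55.4 in shGldc cells. Sp5 was listed at 0 in MEFs and stood at 1.28 FPKM in iPSCs, 0.554 in V6.5 cells, 11.6 in NTC cells and 77.8 in shGldc cells. Both had the order of levels seen for Cdx1 and Cdx2, with V6.5 cells lowest among the pluripotent libraries, followed by iPSCs, NTC and shGldc cells. Lef1 and Tcf7, Wnt effectors of the same list, did not have this order, with Lef1 at 0.151 FPKM in iPSCs, 1.16 in V6.5 cells, 1.11 in NTC and 5.01 in shGldc cells. Tcf7 stood at 18.1 FPKM in iPSCs and 24.6 in V6.5 cells.

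Of 21 caudal and tailbud genes and Hox genes on which Cdx factors are known to act, 15 passed the filter between shGldc and NTC cells, 14 were higher and 0 lower, beside 8.97% of all genes higher. Of these 15, 10 reached 1 FPKM in shGldc cells alone, so that they passed through the library where they were high and had to be higher. Of the 5 that stood at 1 FPKM or more in NTC cells, 4 were higher in shGldc cells. The median log2 ratio over all 21, whatever their level, was 3.13. Hoxb1 was listed at 0 in NTC cells and stood at 9.62 FPKM in shGldc cells, and Hoxb2 stood at 0.0636 and 12.2. Cyp26a1, the enzyme that degrades retinoic acid and the gene of this list with the highest level in shGldc cells, stood at 0.732 FPKM in NTC and 25.7 in shGldc cells. Gdf11, a ligand that patterns the trunk-to-tail transition, had the smallest ratio of the 14, at 1.07 FPKM in NTC and 2.78 in shGldc cells. Nkx1-2, a marker of the progenitors at the tail end of the embryo, was the single gene of the 15 within 2-fold, at 6.46 FPKM in NTC and 3.63 in shGldc cells. It stood at 0.0312 FPKM in V6.5 cells, so that, like T, it was higher in both libraries of the second table.

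Between NTC and V6.5 cells, across the tables, 7 of these 21 genes passed, 2 were higher and 2 lower, beside 4.99% and 10.3% of all genes, and each of these 4 passed through the library where it was high. Cyp26a1 stood at 0.631 FPKM in V6.5 cells, 1.16-fold from its NTC level and under the filter. Cdx1 and Cdx2 differed 12.9-fold and 19.8-fold between the same 2 libraries. Whether any Hox level depended on a Cdx level was not tested.

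Other genes of the streak, organizer and mesoderm were mostly low. Of 37 genes, 10 passed between shGldc and NTC cells, 3 were higher and 2 lower, beside 8.97% and 7.68% of all genes. Of the 8 at 1 FPKM or more in NTC cells, 1 was higher and 2 were lower, and the median log2 ratio over all 37, whatever their level, was 0.00. The highest, which both passed through their shGldc level alone, were Pdgfra, a receptor of paraxial mesoderm and primitive endoderm, at 0.143 FPKM in NTC and 1.36 in shGldc cells, and Evx1, a homeobox gene of the posterior streak, at 0.278 and 1.9. The lowest were Lfng, a modifier of Notch, at 1.58 and 0.178, and Tcf15, a bHLH factor of the paraxial mesoderm that embryonic stem cells also express, at 75.9 and 22. Lfng passed through its NTC level alone, so that it could only be lower. Msgn1, a factor of the presomitic mesoderm, stood at 0.599 FPKM in NTC and 0.612 in shGldc cells and was listed at 0 in the other 3 libraries. Cer1, a secreted antagonist of Nodal and Wnt made by anterior endoderm, was listed at 0 in all 5.

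Among 14 other T-box genes, 5 passed between shGldc and NTC cells, Tbx2 was higher (0.108 and 1.01 FPKM in NTC and shGldc cells) and Tbx21 lower (6.52 and 2.43), beside 8.97% and 7.68% of all genes, and the median log2 ratio over all 14 was 0.00. Tbx2 passed through its shGldc level alone. Tbx1, next highest by ratio, stood at 1.09 FPKM in NTC and 1.64 in shGldc cells, and Mga, next lowest, at 3.68 and 2.73. Tbx3, which supports self-renewal of mouse embryonic stem cells, had the highest level of this list in each pluripotent library, at 39.4 FPKM in iPSCs, 19.9 in V6.5 cells, 56.1 in NTC cells and 64 in shGldc cells. In MEFs the highest was Tbx15, at 18.7 FPKM.

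**Figure D4:**
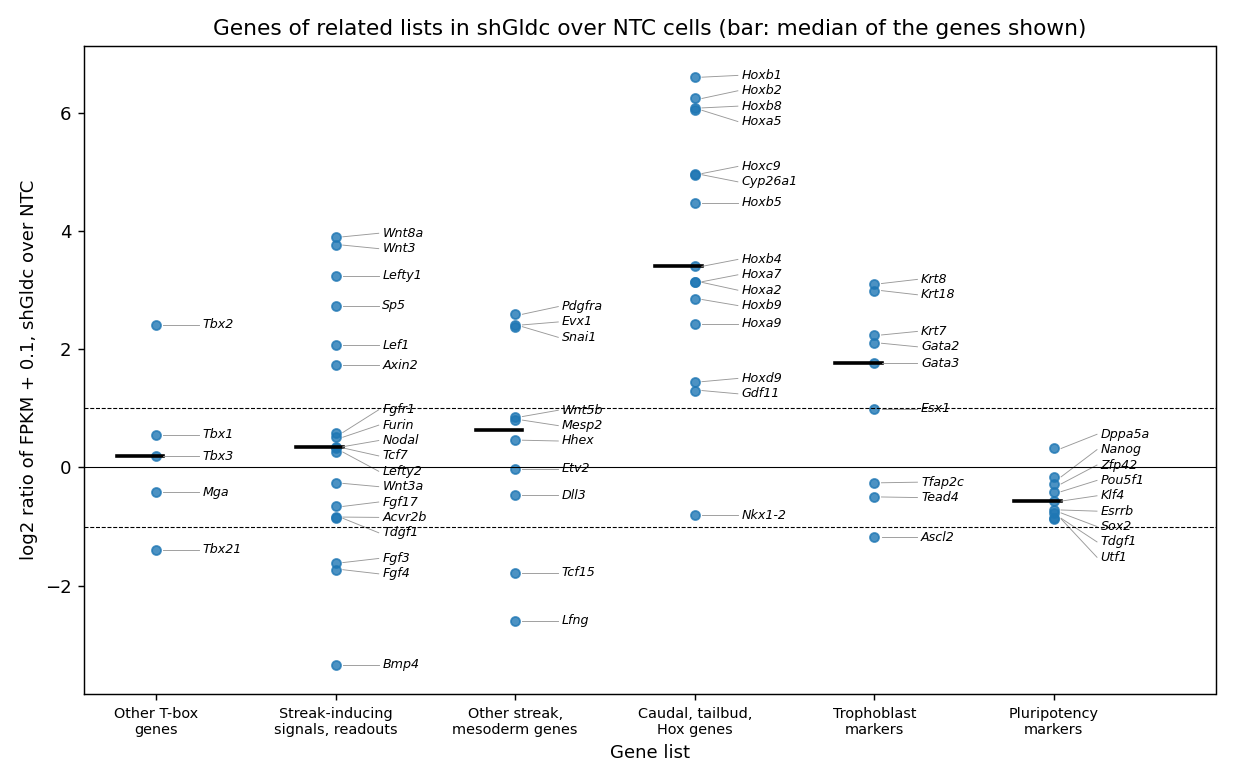
Log2 ratio of FPKM + 0.1 for shGldc over NTC cells, for each gene of 6 lists that reached 1 FPKM in either library (points), with the median of those points (black bars) and dashed lines at 2-fold. All but 1 of the 15 caudal, tailbud and Hox genes, 10 of which reached 1 FPKM in shGldc cells alone, lay above 2-fold, while the 9 pluripotency markers lay between -0.87 and 0.32.

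Some markers of other cell types also differed between shGldc and NTC cells. Of 12 trophoblast markers, 9 passed between shGldc and NTC cells and 5 were higher (Gata3, Krt7, Krt8, Krt18 and Gata2) while Ascl2 was lower, and the summed level of the list was 95.1 FPKM in NTC and 253 in shGldc cells. Gata3 and Krt7 passed through their shGldc level alone, and of the 7 markers at 1 FPKM or more in NTC cells 3 were higher and 1 was lower, beside 8.97% and 7.68% of all genes. Tead4, the second lowest of the list, stood at 9.24 FPKM in NTC and 6.51 in shGldc cells. Krt8, a keratin of simple epithelia, stood at 9.09 FPKM in NTC and 79.4 in shGldc cells, and Krt18 at 11.9 and 95.4. Elf5, a defining factor of trophoblast stem cells, was listed at 0 in NTC cells and at 0.031 FPKM in shGldc cells. Over the libraries, the trophoblast markers summed to 23.6 FPKM in MEFs, 564 in iPSCs and 201 in V6.5 cells, with Krt18 highest in iPSCs at 234 FPKM and Esx1 highest in V6.5 cells at 87.4. Across the tables, 9 trophoblast markers passed between NTC and V6.5 cells. In NTC cells 1 was higher and 3 were lower (Krt7, Esx1 and Hand1), beside 4.99% and 10.3% of all genes. Krt7 and Hand1 passed through their V6.5 level alone. A few genes carried much of these sums. Krt8 stood at 171 FPKM in iPSCs and 9.98 in V6.5 cells, Krt18 at 20.8 in V6.5 cells, and Esx1 at 8.45 in NTC cells. The part of the trophoblast markers in the Cdx2 result was not tested.

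Of 9 endoderm markers, 4 passed between shGldc and NTC cells and 3 were higher (Gata6, Gata4 and Dab2), beside 8.97% of all genes, with summed levels of 5.67 FPKM in NTC and 21.8 in shGldc cells and with Afp and Ttr at 0 in both. Gata6 and Dab2 passed through their shGldc level alone, and of the 2 markers at 1 FPKM or more in NTC cells, Gata4 was higher and Cxcr4 stood at 1.57 FPKM in NTC and 1.54 in shGldc cells. Gata6, a factor of the primitive endoderm, stood at 0.462 FPKM in NTC and 8.22 in shGldc cells. Of 8 early neural markers, 2 passed and 0 were called, with sums of 6.37 and 7.27 FPKM, and these were Nes, at 4.1 FPKM in NTC and 4.02 in shGldc cells, and Sox1, at 1.43 and 1.15. Of 10 fibroblast markers, 4 passed and 2 were lower (Col1a1 and Thy1), beside 7.68% of all genes. Col1a1 passed through its NTC level alone, so that it could only be lower. The sums of the list were 123 and 93.8 FPKM, mostly from Fn1, with Col3a1, Prrx1, Postn, Lum and Dcn at 0 in both libraries. Twist1, the highest of this list by ratio, stood at 2.1 FPKM in NTC and 3.66 in shGldc cells. Of the 9 pluripotency markers, 0 were called and the median log2 ratio was -0.57, with Utf1 lowest at -0.87 and Dppa5a highest at 0.32. The part of these markers in the differences of the members was not tested.

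The profile of each of the 8 members that reached 1 FPKM in any library, thus without Mesp1 and Tbx6, over the 5 libraries was set beside those of 13656 genes that reached 1 FPKM in at least 1 library, by Euclidean distance of log2(FPKM + 0.1), as a description over 5 points. The 3 nearest to Cdx4 were Evx1, at a distance of 0.62, Slc22a3 at 0.87 and AA792892 at 1.34. The nearest to T were Ak7, Mir6941 and Ppp1r14d, at 0.96 to 1.06, and to Mixl1 Hnf4a, Cd8b1 and Ushbp1, at 0.52 to 0.74. Eomes lay nearest to Stmn3, Chst8 and Rhpn2, Gsc to Mir17hg, Smim24 and Brip1, and Fgf8 to Capn11, 2410017I17Rik and F2. Cdx1 and Cdx2 had no near neighbour, the closest being Calcoco2, Rpl10l and Fam25c for Cdx1, from 2.33 on, and 1700013H16Rik, 4930502E18Rik and Fbp2 for Cdx2, from 1.56 on. None of these 8 was among the 3 nearest genes of another.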

How the data were processed

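RNA from 1 library per group was sequenced. The authors aligned reads with TopHat2 2.1.0, used SAMtools 1.7, assembled and quantified transcripts with StringTie 1.3.4d and exported gene-level FPKM with Ballgown, and these FPKM values are what was deposited, in 2 separately made tables. The processing notes name both mm9 and mm10. The annotation, strand setting and filters are not given in the sources used here. Gene positions are those that GENCODE M21 gives on mm10 for each symbol.

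Log2 ratios used a pseudocount of 0.1, a 2-fold size and an FPKM minimum of 1, computed with Python 3.11.15, numpy 2.4.6 and pandas 2.3.3, and plots were drawn with matplotlib 3.10.9. The calls were run on a copy of the NTC library with set folds and no counting noise, which checks their arithmetic alone. The depth estimate was run on simulated counts. With 1 library per group no p-value was computed. Counting intervals (95%, exact) cover counting error only and rest on the estimated depth. The alternatives were pseudocounts of 1 and 0.01, rescaling, centring, no filter and a minimum of 5 FPKM.

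The members and the gene lists were chosen with earlier results of these data known, and 1 gene of the lists is not reported here. Named were all members, Gldc, genes overlapping a member, the 2 highest and 2 lowest genes of each list by shGldc-to-NTC ratio, genes with the highest level of a list in a library, and the 3 nearest profiles of each member that reached 1 FPKM. Other names were chosen after values were seen. Promoter motifs were likewise chosen then.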

Additional observations from a re-analysis of the deposited data

How the results depend on the processing

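The count of 3 members higher in shGldc than in NTC cells was 3 under each alternative but a minimum of 5 FPKM, where it was 2, since Cdx4 did not pass, and no value changed sign. Without the FPKM filter, Mesp1 added 1 lower member in that comparison, and the higher members became 9 in V6.5 cells over MEFs, 10 in iPSCs over MEFs and 4 in iPSCs over V6.5 cells. With a minimum of 5 FPKM these last 3 counts were 2, 1 and 1, since fewer members passed. With a pseudocount of 1 the median log2 ratio of the members was 0.46 in V6.5 cells and 0.87 in iPSCs over MEFs, and with 0.01 it was 4.74 and 4.98, because most members were at or near 0 in MEFs. Of 60 single log2 ratios, 31 moved by over 0.59 with a pseudocount of 1 and 20 with 0.01, while 0 of 60 moved with rescaling and 0 of 40 with centring. Over all genes, 1074 higher and 919 lower in shGldc than in NTC cells became 654 and 538 with a pseudocount of 1, 1996 and 1842 without a filter, and 475 and 322 at 5 FPKM. For iPSCs over V6.5 cells, 1241 and 917 became 753 and 556, 2015 and 1461, and 634 and 502, and 4104 higher in iPSCs than in MEFs became 2694 at 5 FPKM. Mesp1, Tbx6 and Cdx4 rested on few fragments, and depth limits what their differences show.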

Other observations

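The untreated V6.5 library differed from the NTC library in some genes of the anterior and neural side as well as in some streak and caudal genes, across the separately made tables. Otx2, a homeobox factor of the anterior epiblast and forebrain, stood at 11.5 FPKM in V6.5 cells, 0.592 in NTC cells, 0.549 in shGldc cells and 0.304 in iPSCs. Sox1, an early marker of the neural plate, stood at 7.62 FPKM in V6.5 cells, 1.43 in NTC cells and 1.15 in shGldc cells. Of 8 early neural markers, 4 passed the filter between NTC and V6.5 cells and 3 were lower in NTC cells (Sox1, Pax6 and Otx2), beside 10.3% of all genes. Pax6 and Otx2 passed through their V6.5 level alone. Cdx1, Cdx2, T and Mixl1 were higher in NTC cells, and all but Cdx1 passed through their NTC level alone. Of the 37 other streak, organizer and mesoderm genes, 11 passed in this comparison. In NTC cells 2 were higher and 5 lower (Mesp2, Hand1, Tcf15, Nkx2-5 and Lfng), beside 4.99% and 10.3% of all genes. Hand1 and Nkx2-5 passed through their V6.5 level alone. Of 10 fibroblast markers, 8 passed in the same comparison and 5 were lower in NTC cells (Col1a1, Col1a2, Col3a1, Postn and Dcn). Col1a2, Col3a1, Postn and Dcn passed through their V6.5 level alone, so that they had to be lower. The summed levels of the list were 167 FPKM in V6.5 and 123 in NTC cells. The part of the fibroblast markers in these differences was not tested. With 1 library each, made into separate tables, the shRNA vector, the culture and the processing cannot be told apart in this comparison.

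Lefty1, a Nodal antagonist, stood at 0.888 FPKM in iPSCs, 37.8 in V6.5 cells, 3.54 in NTC cells and 34.3 in shGldc cells. Across the separately made tables, it was thus lower in iPSCs and NTC cells than in V6.5 and shGldc cells. Lefty2, its neighbour in the family, stood at 0.367 FPKM in iPSCs, 17.4 in V6.5 cells, 18.5 in NTC cells and 22.2 in shGldc cells.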
